A study of Rattus norvegicus with 138 samples.

Results

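The comparison described here is that of the rostral ventrolateral medulla (RVLM) of 6 spontaneously hypertensive rats (SHR) with that of 3 Wistar-Kyoto rats (WKY), all female and 16 wk old. Its members are the 9 libraries of this region and age, found by their column names among the 46 of the deposited RVLM count table. Every library came from a different rat, and no treatment is named for either strain. The whole series holds 1 such library from each of 3 regions of 46 female rats of these inbred strains at 5 ages, the other regions being the caudal ventrolateral medulla (CVLM) and the nucleus of the solitary tract (NTS). The SHR develops high blood pressure without any intervention, and the study places 16 wk in its established phase. The WKY rat is its usual normotensive control, although the strains also differ at many loci that have no bearing on blood pressure. A strain difference in RNA therefore holds both, and nothing in these data separates them.

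The RVLM drives the sympathetic outflow to heart and vessels. Its presympathetic neurons project to preganglionic neurons in the spinal cord, use glutamate, and in part belong to the C1 group, which makes adrenaline through tyrosine hydroxylase (Th), dopamine beta-hydroxylase (Dbh) and phenylethanolamine N-methyltransferase (Pnmt). Angiotensin II, glutamate, GABA and immune mediators are all known to act on these cells.

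The libraries held 9077659 to 11892784 counts assigned to genes and 16368 to 17160 genes with a count. In the 13411 genes tested, the first principal component carried 35.3% of the variance and set SHR 1, SHR 4 and WKY 3 apart from the other 6 libraries. This split crosses the strains. The second component carried 18.3% and separated the strains without overlap, from -18.4 to -9.95 in SHR and from 25.2 to 32.9 in WKY. Values below are CPM, the counts of a gene scaled by library size after TMM normalization, and a log2 fold change is SHR over WKY, so that negative values mean lower in SHR.

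The punches carried the adrenergic markers of the region. Pnmt was at 27.04 to 64.5 CPM over the 9 libraries, Th at 44.1 to 135 and Dbh at 6.71 to 23.4. Phox2a, a transcription factor of these neurons, had at most 3 counts in a library and was not tested. The tissue also held other cells. Markers of motor neurons summed to 741 to 1814 CPM in SHR and 795 to 1994 in WKY, and markers of oligodendrocytes to 37452 to 51006 and 38865 to 60415. The summed levels overlapped between the strains in 13 of 15 marker lists. The exceptions were that of astrocytes, which S100b carried as given below, and that of blood leukocytes, which reached 3.38 to 5.42 CPM in SHR and 2.35 to 3.36 in WKY with 1 of its 10 genes tested. Markers of T cells (Cd3e, at most 3 counts) and the choroid plexus transcript Ttr (at most 19 counts) were near 0. In such bulk tissue, fewer cells of a type and less RNA per cell cannot be told apart.

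A call needed a difference of at least 2-fold together with an adjusted p of at most 0.01 by the quasi-likelihood method of edgeR. Of 13411 genes tested, 122 were called (0.91%), of which 61 were higher in SHR (0.455%) and 61 lower (0.455%). The median log2 fold change was 2.05 for the genes called higher and -1.72 for those called lower, against 0.01 over all genes tested. At an adjusted p under 0.05 with no limit on the fold, 221 genes passed (1.65%), 114 higher and 107 lower. An unadjusted p under 0.05 was reached by 742 genes. In 120 of the 122 called genes every SHR value lay on the same side of every WKY value, where 4.18% of all tested genes showed no such overlap. The exceptions were Cep295 and Sccpdh. Calls and overlap come from the same values, so this separation adds no separate support to the calls. The p-values rest on the spread between rats of the same strain and age, pooled over all 46 RVLM libraries in the fit. They do not measure the spread of the 16 wk rats alone. The median SE of the log2 fold changes, from the same fit, was 0.23.

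**Figure D1:**
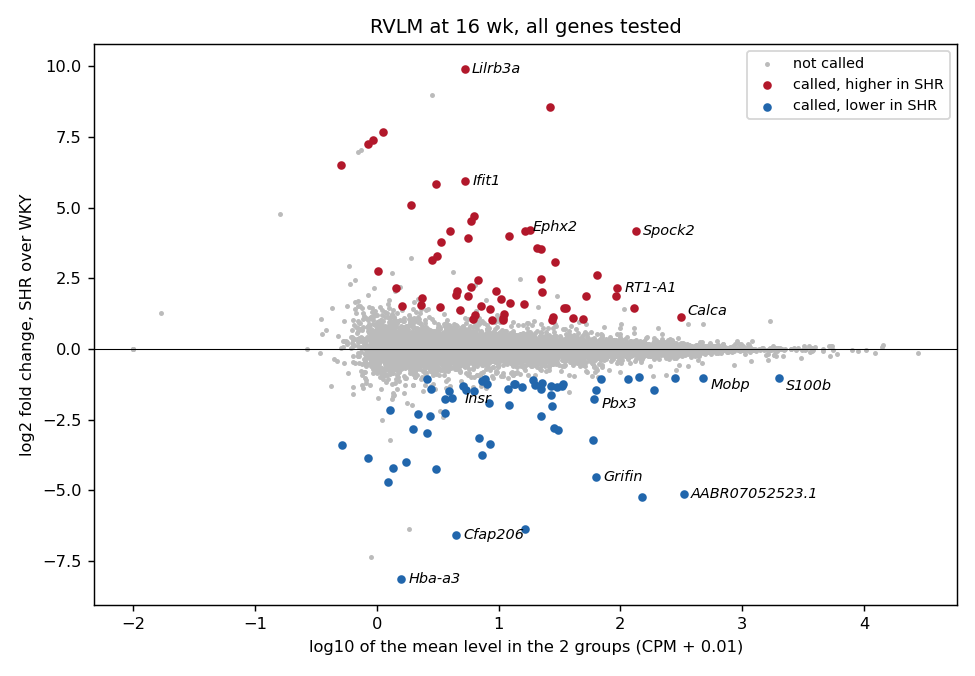
Each point is 1 of the 13411 tested genes, with log10 of its mean CPM in both strains (plus 0.01) on the x axis and its log2 fold change of SHR over WKY in the RVLM at 16 wk on the y axis. The 122 called genes are coloured by direction, 61 on each side, and their log2 fold changes run from -8.16 (Hba-a3) to 9.89 (Lilrb3a).

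Of the called genes, 29 (23.8%) carried only a clone, predicted or locus name, against 8.01% of the genes tested. Strain variants and near-identical gene copies can shift reads between rows, and their part in these calls was not tested. A mean of at least 10 CPM in the strain of the higher level was reached by 76 called genes.

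Genes that were nearly silent in one strain led the list on both sides. The leading genes named here were picked among called genes without overlap, so their lack of overlap follows from this choice. Lilrb3a, an inhibitory immunoglobulin-like receptor of leukocytes, was at 7.95, 10.7 and 12.5 CPM in SHR (lowest, median and highest of 6) and had no count in any WKY library. Set against a floor of 3 counts over the WKY group, it was at least 110-fold higher in SHR. Ifit1, an interferon-induced protein that binds foreign RNA, was at 4.19, 12.1 and 15.3 CPM in SHR and at 0.105, 0.0870 and 0.288 in WKY, a log2 fold change of 5.93 (SE 0.66, adjusted p = 1.81e-08, edgeR). Neither gene overlapped between the strains. Spock2, a proteoglycan of the extracellular matrix that is abundant in brain, reached 231, 250 and 279 CPM in SHR against 13.95, 13.1 and 14.9 in WKY (log2 fold change 4.18, SE 0.21, adjusted p = 1.09e-18, edgeR). The spread within each strain was small beside this gap.

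Ephx2 encodes soluble epoxide hydrolase, which breaks down epoxyeicosatrienoic acids, lipids that dilate vessels. It was at 22.1, 31.9 and 35.2 CPM in SHR and at 2.10, 1.74 and 1.34 in WKY, and its log2 fold change was 4.17 (SE 0.24, adjusted p = 5.37e-17, edgeR). The lowest SHR lay far above the highest WKY rat. In a list of 17 tested genes known as candidates in the SHR, Ephx2 was the only one that passed at an adjusted p under 0.05, and the median log2 fold change of that list was -0.0041. Cd4 is the coreceptor of helper T cells and is also made by rat macrophages. It was at 3.02, 5.37 and 11.7 CPM in SHR and at 0.420, 0.261 and 0.672 in WKY, with a log2 fold change of 3.79 (SE 0.49, adjusted p = 5.11e-07, edgeR). The other genes at this end were Pkp1, a plaque protein of desmosomes (log2 fold change 4.16), Apoa5, an apolipoprotein that controls plasma triglyceride (3.93), Pxmp4 of the peroxisomal membrane (3.56) and the membrane protein Tmem94 (3.55). These 4 genes were also picked for the lack of overlap, and all had an adjusted p of at most 3.14e-08 in edgeR.

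Of the rows with clone names, AABR07064061.1 was at 45.2, 52.9 and 62.8 CPM in SHR and at 0, 0 and 0.384 in WKY. AC127140.1 had 371 counts over the SHR libraries and 3 over those of WKY, a ratio of 62.0 per library size (95% interval 21.0 to 302, counting error only). All 3 of these WKY counts were in WKY 2, and its log2 fold change of 5.82 became 9.08 without that library. What these rows encode is not given in the table.

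On the lower side, Hba-a3, a row of the alpha-globin family, had no count in any SHR library and stood at 4.20, 2.96 and 2.30 CPM in WKY, at least 65.9-fold lower in SHR against the same floor. Cfap206, a protein of the ciliary axoneme, was at 0 in 4 SHR and at 0.327 CPM in the highest, with 8.39, 6.79 and 11.1 CPM in WKY (log2 fold change -6.59, SE 0.52, adjusted p = 9.12e-13, edgeR). Of 25 other tested genes of the motile cilium, 0 passed at an adjusted p under 0.05 in edgeR, with 2 at an unadjusted p under 0.05 and a median log2 fold change of 0.03.

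Grifin, a galectin-related protein best known from the lens, was at 3.42, 5.02 and 7.76 CPM in SHR and at 118, 161 and 84.4 in WKY, a log2 fold change of -4.55 (SE 0.38, adjusted p = 5.26e-12, edgeR). Tmem106c, a membrane protein, was at 6.15, 7.42 and 8.55 CPM against 50.6, 47.5 and 63.6 (log2 fold change -2.86, SE 0.16, adjusted p = 3.23e-17, edgeR). Both were many times lower in every SHR than in any WKY rat. Lrsam1, a ubiquitin ligase, fell from 12.7, 16.5 and 17.1 CPM in WKY to 0.715, 1.15 and 2.71 in SHR (log2 fold change -3.38). The rest of this group held enzymes and enzyme-like proteins. They were Tstd1, related to thiosulfate sulfurtransferases (-3.75), Haghl, related to hydroxyacylglutathione hydrolase (-2.38), the serine hydrolase-like Serhl2 (-1.99) and Pld5 of the phospholipase D family (-1.90). Aif1l, an actin-binding protein, had a log2 fold change of -2.02. The call of Pld5 was lost without WKY 1 (highest adjusted p with 1 library left out 0.0224, edgeR). Of the rows with systematic names, RGD1563294 was at 7.68 CPM (median) in SHR and at 263, 286 and 327 in WKY, and AABR07052523.1 at 18.4 and at 641, 600 and 686.

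**Figure D2:**
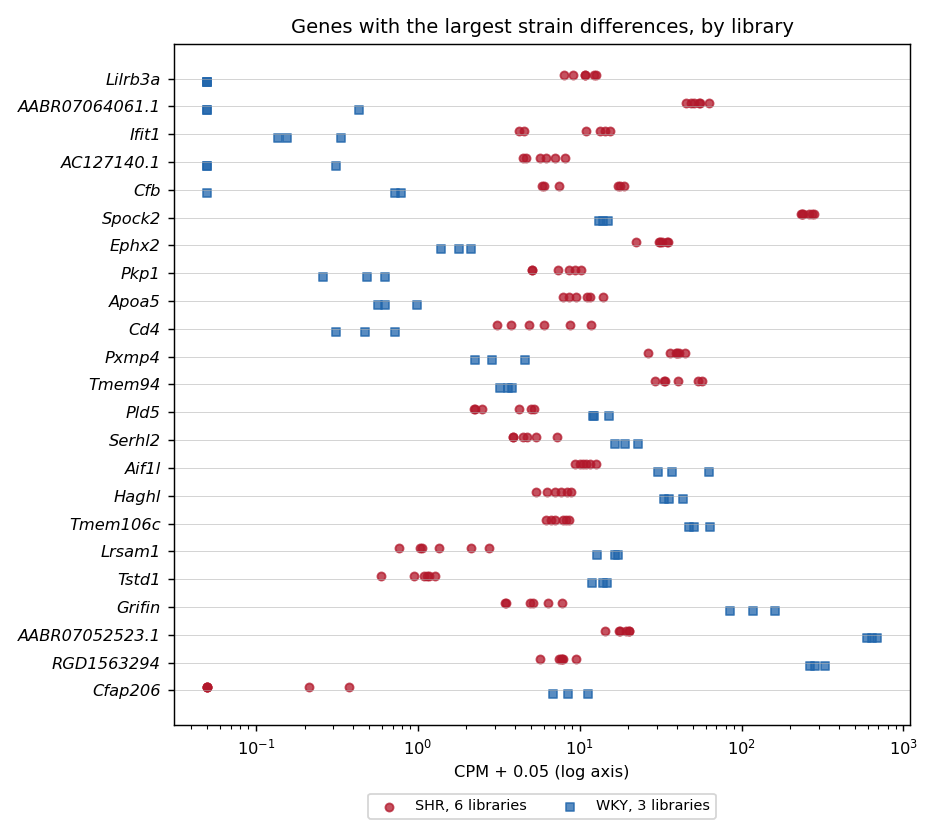
CPM plus 0.05 on a log axis of leading genes higher (upper rows) and lower (lower rows) in SHR, with 1 symbol per rat for 6 SHR (circles) and 3 WKY (squares) in the RVLM at 16 wk. The SHR and WKY points of Spock2 and Ephx2 above, and of Grifin and Tmem106c below, form separate groups. The genes shown were picked among those without overlap.

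Other called genes are described here by function, chosen after their values were seen. The first ones were higher in SHR. Chi3l1, a chitinase-like protein that reactive astrocytes secrete, had 82.2 ± 10.1 CPM (SD, n = 6) in SHR and 22.2 ± 0.644 (n = 3) in WKY (log2 fold change 1.89, SE 0.14). F3, tissue factor, which starts coagulation, had 56.0 ± 7.46 against 26.1 ± 1.78 CPM (1.10, SE 0.17), and Slc11a1, a metal transporter of phagosomes in macrophages, had 11.5 ± 2.39 against 2.09 ± 0.903 (2.45, SE 0.33). The next ones are known from neurons. Ptprn2, a protein of dense-core vesicles, had 109 ± 33.8 CPM in SHR and 18.0 ± 7.94 in WKY (2.601, SE 0.39), Sept5, a septin of nerve terminals, 145 ± 32.3 and 39.3 ± 10.4 (1.88, SE 0.22), and the membrane protein Itm2c 191 ± 9.06 and 69.3 ± 9.01 (1.46, SE 0.19). Cbs, cystathionine beta-synthase, makes the gas hydrogen sulphide and stood at 50.2 ± 10.2 CPM against 18.6 ± 10.3 (1.43, SE 0.21). The strains did not overlap in any of these 7 genes, and all had an adjusted p of at most 1.51e-05 in edgeR.

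Genes called lower in SHR were picked for description in the same way. Reep1, which shapes the endoplasmic reticulum of neurons, had 102 ± 17.1 CPM in SHR and 277 ± 89.7 in WKY (-1.44, SE 0.21). Dnaja3, a mitochondrial chaperone, had 74.8 ± 2.85 against 158 ± 9.91 (-1.08, SE 0.08), the smallest SE among the genes given here, and Cisd2, an iron-sulphur protein of the organelle membranes, had 44.2 ± 7.18 against 93.4 ± 2.09 (-1.08, SE 0.17). Txnip, an inhibitor of thioredoxin, had 20.3 ± 2.23 CPM in SHR and 47.8 ± 14.4 in WKY (-1.24, SE 0.16), and fibronectin (Fn1) 8.65 ± 1.69 and 22.2 ± 3.61 (-1.36, SE 0.20). No SHR value of these 5 genes reached a WKY value, and their adjusted p was at most 1.57e-05 in edgeR.

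Of the gene lists examined, which differ in length, that of antigen presentation held the most called members. Cells cut cytosolic proteins with the proteasome, whose immune form holds Psmb8. The transporter Tap2 moves the peptides into the endoplasmic reticulum, and Tapbp (tapasin) helps load them onto class I molecules, in the rat encoded by RT1 genes. Of 29 tested genes of the list, 5 passed at an adjusted p under 0.05 in the higher direction and 2 in the lower. Of these, 4 and 2 were called. Over all genes tested, 1.65% passed and 0.91% were called. The median log2 fold change of the list was -0.03, so the called genes were exceptions within it.

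RT1-A1, a classical class I heavy chain, was at 128, 157 and 170 CPM in SHR and at 32.1, 31.9 and 39.5 in WKY (log2 fold change 2.15, SE 0.13, adjusted p = 7.69e-16, edgeR). Tapbp was at 54.4, 68.7 and 72.7 CPM in SHR and at 29.1, 27.3 and 39.8 in WKY, a log2 fold change of 1.06 (SE 0.19, adjusted p = 2.34e-04, edgeR). Psmb8 was at 10.5, 15.03 and 17.7 CPM against 6.399, 6.35 and 8.07 (log2 fold change 1.10, SE 0.21, adjusted p = 5.40e-04, edgeR). Each of the 3 genes was higher in all 6 SHR than in any WKY rat, and the gap was widest for RT1-A1. Tap2 was at 5.002, 9.87 and 11.9 CPM in SHR and at 2.73, 1.65 and 2.88 in WKY (log2 fold change 1.87, SE 0.44, adjusted p = 0.00993, edgeR). The calls of Tapbp and Psmb8 were lost without WKY 1 or WKY 2, and that of Tap2 without any 1 of 7 libraries (adjusted p up to 0.162, edgeR). The call of Tap2 was also lost with DESeq2's size factors in place of TMM (adjusted p = 0.0103, edgeR) and with rows of the same symbol summed (0.0105). RT1-A2 and RT1-N2 went the other way. RT1-A2 was at 3.57, 4.72 and 5.01 CPM in SHR and at 10.5, 7.49 and 11.9 in WKY (log2 fold change -1.13, adjusted p = 2.78e-04, edgeR), and RT1-N2 had a log2 fold change of -2.31 (adjusted p = 1.68e-04, edgeR). Both calls were lost without WKY 3. RT1 genes are highly polymorphic and have near-identical copies, so a read can be assigned to the wrong copy and the RT1 values are uncertain.

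The promoters of Psmb8, Tap2 and Tapbp are shown because they share a motif. The letters searched were GAAA-NN-GAAA and, for the other strand, TTTC-NN-TTTC, the core of the interferon-stimulated response element, in a window from 250 bases before to 50 after the start of each gene in RefSeq (build GRCr8). Of the called genes of the MHC, complement and interferon lists, 6 had such a promoter and 3 of these held the motif, against 1312 of 33469 promoters (3.92%). The share among the uncalled genes of these lists was not counted, so the motif is not shown to go with the calls. The match is a description of these letters. The lines below run from 100 bases before the start to 10 after, 5′ to 3′ on the strand of the gene, with the motif in capitals. They lie on the minus strand at chr20:4657022-4657131 (Psmb8), chr20:4652287-4652396 (Tap2) and chr20:4967868-4967977 (Tapbp).
Psmb8: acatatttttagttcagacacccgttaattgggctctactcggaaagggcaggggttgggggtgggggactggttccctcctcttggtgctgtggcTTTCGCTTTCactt
Tap2: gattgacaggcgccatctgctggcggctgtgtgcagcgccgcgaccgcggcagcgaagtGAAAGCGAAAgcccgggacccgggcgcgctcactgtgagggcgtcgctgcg
Tapbp: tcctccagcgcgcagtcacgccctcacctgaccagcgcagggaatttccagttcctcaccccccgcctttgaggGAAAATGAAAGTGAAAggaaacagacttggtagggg
In Tapbp the motif occurred at 2 overlapping positions, and 0.266% of promoters held 2 or more matches anywhere in the window. RT1-A1, RT1-A2 and RT1-N2 held no match in this window.

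Other interferon-induced genes did not follow Ifit1. Of 44 tested, Ifit1 alone passed, the median log2 fold change was -0.30 and 32 had a value below 0. An unadjusted p under 0.05 in edgeR was reached by 9 of the 44, Ifit1 among them, and by 742 of all 13411 genes tested. Mx2 (-0.79, adjusted p = 0.155), Oas1f (-0.95, adjusted p = 0.168) and Usp18 (-1.03, adjusted p = 0.328) missed the threshold in edgeR. The summed level of the list without Ifit1 was 511 to 888 CPM in SHR and 712, 924 and 978 in WKY, so the strains overlapped. Among complement genes, 28 were tested, 3 passed in the higher direction and the median was 0.17. Over all genes tested, 1.65% passed. C2, a protease of the classical pathway, had a log2 fold change of 1.07 (adjusted p = 0.0116, edgeR). C3, the central complement protein, had one of 2.49 (SE 0.68, adjusted p = 0.0433, edgeR) that rested on few rats. It was at 54.8 and 69.5 CPM in SHR 1 and SHR 4, which also stood apart on the first component, at 4.43 to 8.61 in the other 4 SHR, and at 3.36, 3.05 and 7.203 in WKY.

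The third complement gene was a row of Cfb, complement factor B, with a log2 fold change of 4.71 (adjusted p = 3.75e-04, edgeR). The table holds 2 rows of this symbol, and the other had one of -0.85. Summed, Cfb was at 15.3, 23.3 and 25.9 CPM in SHR and at 10.9, 15.1 and 24.6 in WKY, with overlap, a log2 fold change of 0.32 and an adjusted p of 1 in edgeR. The strain difference of Cfb is therefore uncertain. In the list of cytokines and inflammatory signalling, 1 of 28 tested genes passed, against 1.65% of all genes tested. This was the alarmin Il33, which was lower in SHR, with 26.3 ± 4.07 CPM (SD, n = 6) against 40.2 ± 3.58 (n = 3), a log2 fold change of -0.61 and an adjusted p of 0.00848 in edgeR. It was not called, since its difference was below 2-fold.

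The genes that define the presympathetic neurons showed no detectable strain difference at this number of rats. Of 8 tested genes of the C1 list, 0 passed in edgeR and 0 had an unadjusted p under 0.05, and DESeq2's Wald test called none of them. Th was at 49.9, 68.9 and 135 CPM in SHR and at 44.1, 58.1 and 81.8 in WKY (log2 fold change 0.35, SE 0.54). Pnmt was at 27.04, 41.5 and 64.5 against 28.7, 33.8 and 50.5 CPM (0.16, SE 0.67), and Dbh at 10.0, 12.0 and 23.4 against 6.71, 8.62 and 18.1 (0.37, SE 0.66). The strains overlapped in all 3 of these enzymes. Standard errors of this size leave room for a 2-fold difference in the higher direction, and for Pnmt also in the lower. Slc17a6, the vesicular glutamate transporter of these cells, was at 109, 130 and 195 CPM in SHR and at 135, 106 and 170 in WKY (0.08, SE 0.29). The remaining log2 fold changes were -0.16 for Ddc, 0.47 for Slc6a2, -0.04 for Slc18a2 and 0.09 for Tfap2b, and every gene of this list had an adjusted p of 1.

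The receptors and transmitter systems that act on these neurons gave a similar picture. In the renin-angiotensin system, 0 of 10 tested genes passed in edgeR, 2 had an unadjusted p under 0.05 and the median log2 fold change was 0.13. Agt, the precursor of angiotensin II that astrocytes make in brain, was at 945, 1333 and 1632 CPM in SHR and at 1035, 1016 and 1179 in WKY (0.30, SE 0.16, adjusted p = 1, edgeR). The angiotensin-cleaving aminopeptidases Enpep and Anpep had log2 fold changes of 0.67 and 0.64 (adjusted p = 0.764 and 0.989, edgeR). None of the ionotropic glutamate receptors (19 tested, 1 at an unadjusted p under 0.05), the metabotropic ones (7, 0), the GABA and glycine receptors (21, 0), the adrenergic receptors (6, 0) or the neuropeptide receptors (34, 2) passed in edgeR. The same held for sodium channels (12, 1), calcium channels and stores (28, 1) and synaptic vesicle release (39, 1). The medians of these 8 lists ran from -0.09 to 0.14. Over all tested genes 1.65% passed, so 0 passing genes in any 1 list this short, as in that of C1, is near that share.

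**Figure D3:**
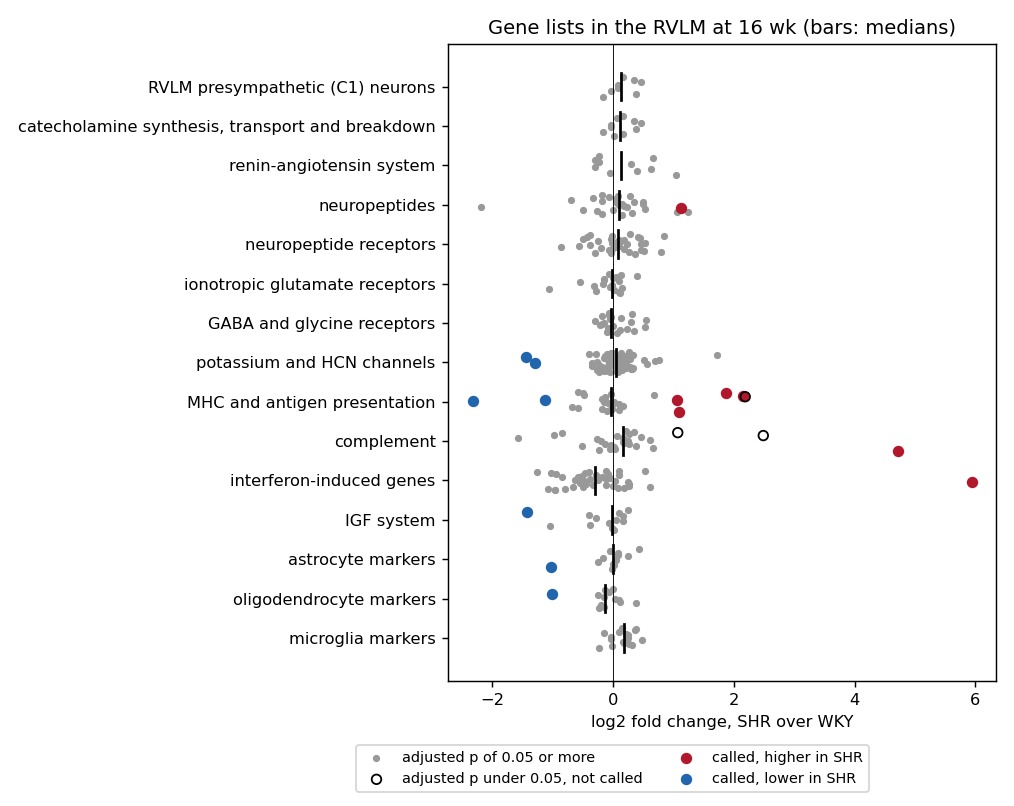
Log2 fold change of SHR over WKY in the RVLM at 16 wk for each tested member of the gene lists, 1 point per gene, with a bar at the list's median. Large coloured points are called genes and open circles those at an adjusted p under 0.05 without a call. They stand out in the MHC list (5 higher, 2 lower), while the C1 and receptor lists hold none.

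Among 65 tested potassium and HCN channel genes, 2 were called, both lower in SHR, and the list's median was 0.04. Over all genes tested, 0.91% were called and 0.455% were called lower. Kcnip3, also known as calsenilin or DREAM, is a calcium-binding subunit of A-type potassium channels and a repressor of transcription. It was at 16.2, 19.5 and 21.2 CPM in SHR and at 42.3, 52.0 and 47.3 in WKY (log2 fold change -1.30, SE 0.18, adjusted p = 1.39e-06, edgeR). The highest SHR lay far below the lowest WKY rat, and the call held with any library left out. Kcne2, an accessory subunit that the choroid plexus also makes, was at 0.978, 1.31 and 2.51 CPM in SHR and at 3.46, 5.22 and 3.36 in WKY (-1.43, SE 0.33, adjusted p = 0.00836, edgeR). Its call was lost without any 1 of 8 libraries.

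Calca was the only one of 28 tested neuropeptide genes that passed, against 1.65% of all genes tested. It encodes calcitonin and, by splicing, calcitonin gene-related peptide, a vasodilator that motor and sensory neurons make. It was at 233, 443 and 652 CPM in SHR and at 224, 198 and 163 in WKY, a log2 fold change of 1.13 (SE 0.26, adjusted p = 0.00643, edgeR). The lowest SHR lay just above the highest WKY rat, and the other 5 SHR were clear of it. The call was lost without any 1 of 7 libraries, with an adjusted p of up to 0.0917 in edgeR. Motor neurons also express Calca, and the sums of their markers given above overlapped widely. Of 9 tested motor neuron markers, 0 passed in edgeR and 0 had an unadjusted p under 0.05, and Chat had a log2 fold change of 0.04. Their part in the level of Calca was not tested.

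Insr, the insulin receptor, was at 4.53, 5.92 and 9.38 CPM in SHR and at 21.6, 12.2 and 18.2 in WKY (log2 fold change -1.43, SE 0.21, adjusted p = 7.46e-06, edgeR). It was the only one of 13 tested genes of the insulin-like growth factor list that passed, and the median of that list was -0.02. Over all genes tested, 1.65% passed. Pik3r1, the regulatory subunit of the phosphoinositide kinase that this receptor recruits, was at 28.9 to 38.3 CPM in SHR and at 91.0, 86.3 and 101 in WKY (-1.47, SE 0.13, adjusted p = 2.44e-11, edgeR). This gene was chosen for mention after its values were seen. Neither gene overlapped between the strains.

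Among 49 tested genes of nitric oxide and oxidative stress, Ephx2 and the glutathione transferase Gstt3 passed, both in the higher direction. Over all genes tested, 1.65% passed and 0.91% were called. Gstt3 was at 101, 126 and 137 CPM in SHR and at 74.6, 58.0 and 90.7 in WKY (0.73, SE 0.13, adjusted p = 1.89e-04, edgeR) and was below the 2-fold limit. The only complex I genes that passed among 37 tested were both rows of Ndufa10l1, a copy of the subunit gene Ndufa10. The larger row was at 161, 183 and 197 CPM in SHR and at 368, 408 and 350 in WKY (-1.05, SE 0.12, adjusted p = 2.19e-08, edgeR). Reads can be split between these copies. Of 22 collagens, Col16a1 was called (-1.24, adjusted p = 0.00144, edgeR), and this call was lost without WKY 1 or WKY 3. The globin genes Hba-a1 (-1.001, adjusted p = 0.138, edgeR) and Hba-a2 (-0.83, adjusted p = 0.437, edgeR) were lower in value without passing. Of 6 tested hemoglobin and red cell genes, 5 had an unadjusted p under 0.05 in edgeR. Of the 6, 5 were lower and 1 higher in value, with a median of -0.87. Their summed levels were 286 to 702 CPM in SHR and 687 to 974 in WKY, with overlap.

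Glial genes held 2 called members, where 0.91% of all genes tested were called. S100b, a calcium-binding protein of astrocytes, was at 975, 1347 and 1496 CPM in SHR and at 2401, 2641 and 2978 in WKY (log2 fold change -1.03, SE 0.15, adjusted p = 3.72e-06, edgeR). All 6 SHR lay far below the WKY rats. It was the only one of 12 tested astrocyte markers that passed, and their median was 0.01. Without S100b the astrocyte sum was 2011 to 3359 CPM in SHR and 2149 to 3013 in WKY, so the other markers overlapped. Mobp, a protein of the myelin sheath, was at 277, 308 and 402 CPM in SHR and at 639, 487 and 802 in WKY (-1.01, SE 0.14, adjusted p = 3.72e-06, edgeR). It was likewise alone among 13 tested oligodendrocyte markers, whose median was -0.14. The call of S100b was lost without SHR 2 or WKY 3 and that of Mobp without SHR 6 or WKY 3, where the fold change went below 2 while the adjusted p stayed at most 0.000256 and 0.000952. No marker of microglia (17 tested, 2 at an unadjusted p under 0.05), oligodendrocyte precursors (8, 1) or endothelium (12, 1) passed in edgeR.

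**Figure D4:**
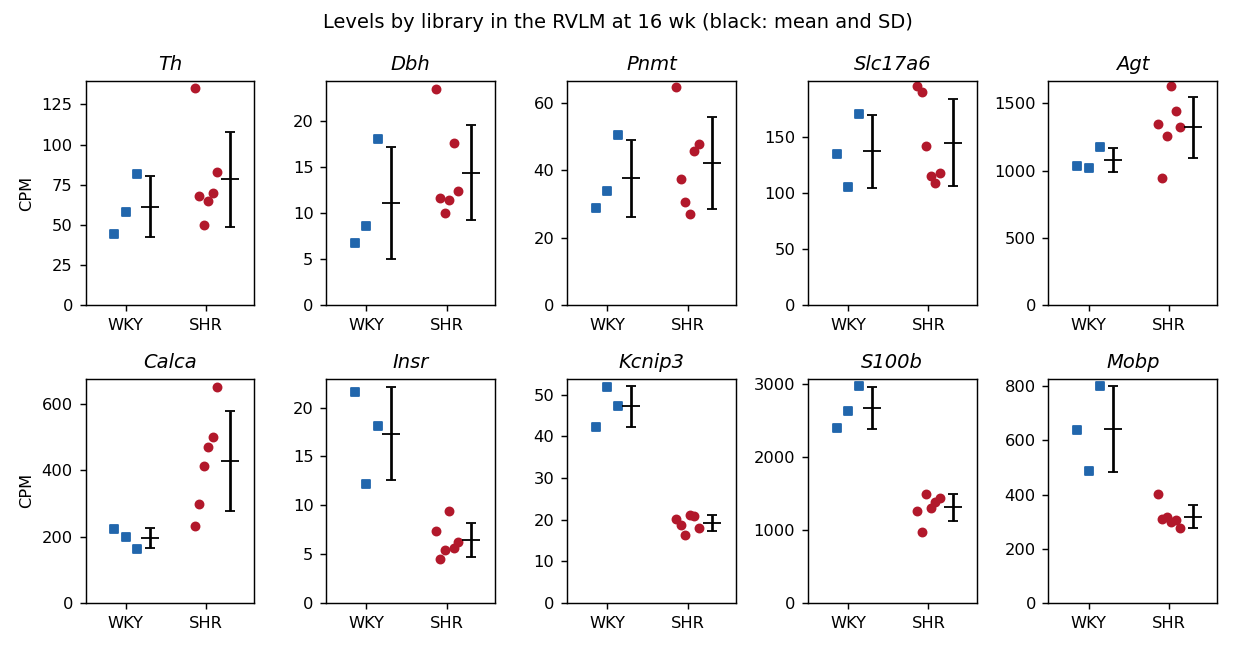
CPM of neuronal, channel and glial genes on linear axes from 0, with 1 point per rat for 3 WKY (squares) and 6 SHR (circles) in the RVLM at 16 wk and the mean with its SD in black. The points of Th, Pnmt, Dbh and Slc17a6 overlap between the strains, while those of Kcnip3, Insr, S100b and Mobp do not.

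The ages of the study allow each call to be set beside the same region in other rats. Of the 122 called genes, 81 were also called at all 4 other ages, 23 at 3, 4 at 2, 8 at 1 and 6 at none, and 121 had the same sign at all 4. Of all 13411 tested genes, 7865 (8 wk), 8611 (10 wk), 8171 (12 wk) and 8153 (24 wk) had the sign they had at 16 wk. At 8 wk 103 were called again, which is 84.4% of the calls at 16 wk and 46.8% of the 220 at 8 wk. The numbers were 106 of 155 at 10 wk (86.9% and 68.4%), 102 of 129 at 12 wk (83.6% and 79.1%) and 98 of 130 at 24 wk (80.3% and 75.4%). The number of rats per strain differed between the ages, which changes how many genes can be called. At 8 wk, some WKY but no SHR libraries had names that end in 2. The totals are therefore no comparison of the ages. When the strain difference at 16 wk was tested against its mean at the other ages, 0 of 13411 genes passed at an adjusted p under 0.05 in edgeR, with 104 at an unadjusted p under 0.05, and 2 passed in DESeq2's Wald test. A gene called at 16 wk and at no other age is thus not shown to be particular to that age. The 104 genes are fewer than the share of 0.05 that chance alone gives. This test therefore does not show the ages to be alike.

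Those genes were Casp6, Mei4, Rhbdf2, Calca, Retsat and Sccpdh. Casp6, an executioner caspase, was at 2.41, 3.22 and 6.23 CPM in SHR and at 0.210, 0 and 0.0960 in WKY, and the 229 counts of the SHR against 3 of the WKY libraries give a ratio of 38.3 (95% interval 12.9 to 187, counting error only). Its log2 fold change was 0.93 to 1.86 at the other ages, in the same direction. Without WKY 2 its call was lost (adjusted p = 0.0123, edgeR). Mei4, which takes part in meiotic recombination, and Rhbdf2 (iRhom2), which guides the protease that releases tumour necrosis factor, had 2.77 (adjusted p = 0.00272) and 1.81 (adjusted p = 0.00414) in edgeR. The call of Mei4 was lost without SHR 1 or any 1 WKY rat (adjusted p up to 0.0574, edgeR), and that of Rhbdf2 without WKY 1 or WKY 2 (up to 0.126). Calca had 0.61 to 0.72 at the other ages. Retsat, retinol saturase, was at 71.2, 93.6 and 114 CPM in SHR and at 171, 183 and 211 in WKY (-1.003, SE 0.12, adjusted p = 2.95e-08, edgeR). At the other ages it had -0.98 to -0.69, under the 2-fold limit each time. Its call was lost without SHR 2 or WKY 3, where the fold change went below 2 while the adjusted p stayed at most 5.77e-06 in edgeR. Sccpdh, saccharopine dehydrogenase-like, was at 0 in 4 SHR, at 0.201 and 2.29 CPM in the others, and at 0, 57.2 and 40.1 in WKY. Single rats carried this difference, the strains overlapped, and its sign turned at 10, 12 and 24 wk. Its call was lost without any 1 of 7 libraries (adjusted p up to 0.0740, edgeR).

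The NTS and CVLM punches came from the same 9 rats, so their counts are not independent of those of the RVLM. In their own tests at 16 wk, 111 genes were called in the NTS and 134 in the CVLM. Of the 122 genes called in the RVLM, 85 were also called in the NTS (69.7% of the RVLM list and 76.6% of the NTS list) and 98 in the CVLM (80.3% and 73.1%). Those called in both numbered 81, and 20 were called in neither. These 20 include Tap2, Tapbp, Cfb, Calca, Kcne2 and Col16a1, and several of them had an adjusted p of at most 0.05 there. Ocm2, a calcium-binding protein, was tested in neither region.

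A difference between regions was tested with the animal as a block over 14043 genes. For the RVLM against the NTS, 2 genes passed at an adjusted p under 0.05 in edgeR, with 333 at an unadjusted p under 0.05. For the RVLM against the CVLM, 0 passed in edgeR and 0 in DESeq2's Wald test, with 345 at an unadjusted p under 0.05 in edgeR. Both unadjusted counts are below the share of 0.05 that chance alone gives. Few passing genes therefore do not show the regions to be alike. Cfap206 differed between strains more in the RVLM, by -4.20 on the log2 scale (SE 0.59, adjusted p = 0.00774). In the joint normalization it was at 0 to 0.350 CPM in SHR and 7.32 to 11.7 in WKY in the RVLM, and at 3.66 to 9.54 and 27.9 to 32.9 in the NTS. Both regions had less of it in SHR, and the SHR kept several CPM in the NTS. In the CVLM it was at 0 to 0.334 CPM in SHR and 7.81 to 8.62 in WKY, and the strain difference of the RVLM minus that of the CVLM was -0.53 (SE 0.91, adjusted p = 1, edgeR). Pbx3, a homeodomain transcription factor that partners Hox proteins, differed by -0.92 (SE 0.13, adjusted p = 0.00774). It was at 25.3 to 35.3 CPM in SHR and 83.5 to 130 in WKY in the RVLM, and at 45.5 to 56.1 and 76.9 to 98.4 in the NTS. The SHR values of both regions lay below all WKY values, with a smaller gap in the NTS. In the CVLM Pbx3 was at 38.0 to 46.6 CPM in SHR and 102 to 155 in WKY, and the same contrast gave -0.20 (SE 0.13, adjusted p = 1, edgeR). Without WKY 1 or WKY 3 neither gene passed, without SHR 3 Pbx3 did not, and without the 3 rats that stand apart on the first component 0 genes passed.

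**Figure D5:**
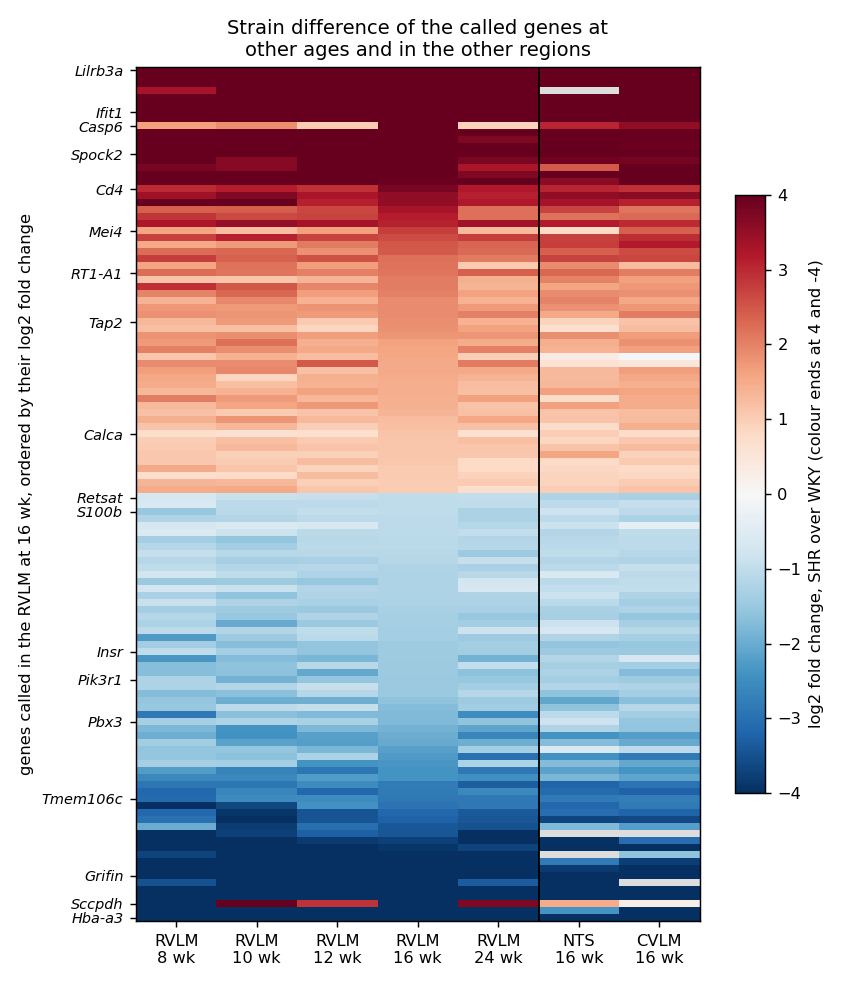
Heat map of the log2 fold change of SHR over WKY for the 122 called genes (rows, ordered by their value in the RVLM at 16 wk) in the RVLM at 5 ages and in the NTS and CVLM at 16 wk, with colours that end at 4 and -4 and grey where a gene was not tested. Among the RVLM columns 121 rows keep their colour, and Sccpdh alone turns.

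Some called genes are neighbours on a chromosome. In the gene order of RefSeq (GRCr8), 12362 tested and 95 called genes could be placed by symbol, and 14 called genes formed 7 pairs with at most 3 tested genes between them. How many pairs as many randomly drawn genes would form was not tested. In 3 pairs both genes had the same sign. Among these, the nuclear receptor gene Nr1i3 overlapped Tomm40l, with 2.05 and 3.08, so that reads of the pair may be hard to tell apart. Tap2 and Psmb8 of the MHC were adjacent with 1.87 and 1.10. The pairs with opposite signs included RT1-A1 with RT1-A2, Lilrb3a with Prpf31, and Casp6 with Etnppl.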

How the data were processed

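Total RNA of bilateral brainstem punches was sequenced. The authors aligned the reads to rn6 and counted them with RSEM, per their methods, and the deposited values are expected counts per gene without normalization, with 32883 rows and replicates kept apart. The methods name ComBat_seq for batch effects. Whether it was applied to the deposited expected counts is not given in the sources used here, and 4.88% of the RVLM values are not whole. Expected counts were rounded. Genes were kept where the largest rlog value (DESeq2 1.42.0) reached 3.5, as in the study. TMM factors, a fit over all 46 RVLM libraries in 10 groups of strain and age, and the quasi-likelihood test came from edgeR 4.0.16 in R 4.3.3, with Benjamini-Hochberg adjustment over 13411 genes. Scripts were tested on simulated data. The region test used 27 libraries with the animal as a block. Groups came from strain, age and region in the labels. No 2 libraries of a strain were repeats (lowest chi-square per gene 9.40). Depth was 9077659 to 11892784 counts.

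The members and gene lists were chosen with earlier results of these data known. Named genes are the 10 with the largest and the 10 with the smallest log2 fold change among called genes without overlap and with a mean of at least 50 counts in the higher group, the 2 at each end among systematic names, called list members and up to 4 others per list described, genes called at 16 wk alone, genes that passed a test between ages or regions, and C1 markers. A few genes that this rule names are not reported here. Alternatives were other normalization, filters, tests, sample sets and a replicate block. Intervals and floors cover counting error only.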

Additional observations from a re-analysis of the deposited data

Results flagged for a closer look

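Of 107 groups of 6 SHR values checked, 5 had 1 rat far from the others by Dixon's test, and chance alone gives such a rat in about 1 of 20 groups. Ephx2 was lowest in SHR 2, at 22.1 CPM. Mobp and the transcription factor Tfap2b were highest in SHR 1, at 402 and 7.19 CPM, and so was the sum of the blood leukocyte markers, at 5.42 CPM with 1 of 10 markers tested. Sccpdh was highest in SHR 6, at 2.29 CPM. SHR 2 still lay above every WKY rat for Ephx2, and SHR 1 below every WKY rat for Mobp.

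On the log2 scale, the strain difference was larger in the RVLM than in the NTS of the same rats for Cfap206 and Pbx3. The test of the difference itself gave -4.20 and -0.92 in edgeR (adjusted p = 0.00774 for each). Mean Cfap206 was 0.0876 CPM in SHR and 9.39 in WKY in the RVLM, and 6.05 and 31.1 in the NTS. Its gap in CPM was thus wider in the NTS, and its RVLM level in SHR was near 0. The cause was not tested.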

How the results depend on the processing

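The number of called genes was 123 with DESeq2 size factors, 126 without the filter, 127 with filterByExpr, 142 with DESeq2's Wald test, 93 with the 9 libraries of 16 wk alone and 126 without libraries whose names end in 2. With an absolute log2 fold change above 2, 59 genes were called, 33 higher and 26 lower. Leaving out 1 rat at a time gave 97 to 127 called genes, 39 to 66 of them higher (39 without WKY 2) and 51 to 61 lower, and 159 to 214 genes at an adjusted p under 0.05. For the RVLM against the NTS it gave 1 to 2 genes. This was Cfap206 alone without SHR 3, Aldh1a1 without WKY 1 (-1.09) and Cbs without WKY 3 (1.19). Against the other ages, 2 genes passed in the Wald test (Gdf1 and LOC103692716) and 0 in each edgeR fit.

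With a replicate block, 74 genes were called (34 higher, 40 lower) and 128 had an adjusted p under 0.05. Replicate numbers do not pair the rats: deviations of same-numbered rats correlated at -0.13, 0.33 and -0.23. The alternatives added after the data were seen gave 95 called genes without SHR 1, SHR 4 and WKY 3, with 0 genes for the RVLM against the NTS, and 121 with rows of the same symbol summed. Of 45 named genes that were called, 27 kept the call under each alternative run.

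With 1 rat left out at a time, the sign turned only for genes with an adjusted p of 1. Their log2 fold changes ran from -0.0016 to 0.43 for Pnmt, from -0.097 to 0.27 for Slc17a6, from -0.15 to 0.18 for Tfap2b, from -0.20 to 0.28 for Slc18a2 and from -0.67 to 0.29 for Igf2. Without SHR 1, SHR 4 and WKY 3, Igf2 was at 0.31 and Slc18a2 at 0.085. The causes were not tested. With 3 WKY rats, differences of 2-fold, and larger ones, in variable genes such as Th (SE 0.54) could have gone undetected.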
